A study of Mus musculus with 10 samples.

Results

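The 37 genes described here encode proteins that build peroxisomes or work inside them: 12 peroxins and 25 enzymes, transporters and ether lipid genes. They were chosen by symbol from the 35275 genes of the deposited expression table, with earlier results of these data known. RNA was sequenced from epithelial cells of the jejunum, which had been detached from the tissue with EDTA, in 10 adult C57BL/6 mice labelled as male. All 10 mice carried VillinCreERT2 and MYO5Bflox/flox, so that Cre is active in villin-expressing epithelium and only after tamoxifen. The 3 control mice (numbers 2, 4 and 5) received corn oil and kept Myo5b, which encodes a motor protein of apical vesicle traffic. The 4 MYO5B-knockout mice (numbers 3, 5, 6 and 7), called knockouts below, received a single dose of 2 mg tamoxifen and then vehicle, 0.1% BSA in PBS. The 3 LPA-treated MYO5B-knockout mice (numbers 1, 4 and 5) received the same tamoxifen dose and then lysophosphatidic acid (LPA) at 3 mg/kg. LPA, a lipid that signals through cell surface receptors, was injected intraperitoneally once a day for 4 days. Cells were taken on day 4. Tamoxifen itself therefore differed between control and knockout mice, and the later vehicle is not named for control mice. The part of either cannot be told apart from that of MYO5B loss. For LPA-treated mouse 1, the title names LPA while the description names both vehicle and LPA.

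Peroxisomes are small organelles that shorten very long and branched fatty acids, trim the side chain of bile acid precursors and make the first ether bond of plasmalogens. Their beta-oxidation passes electrons to oxygen, which yields hydrogen peroxide, and catalase in the same organelle breaks it down. The organelle holds no DNA, so its enzymes are made in the cytosol and pulled in by peroxins. In the small intestine, absorptive enterocytes of the villus are rich in peroxisomes, and many of the oxidation genes are classic targets of the lipid-sensing receptor PPAR-alpha.

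Values are FPKM, that is, fragments per kilobase of gene, with each library scaled to its own total. Of the 37 genes, 36 averaged 0.1 FPKM or more and were tested among 15729 genes in 1 limma model of the log2 of FPKM + 0.1, and a gene was called when its adjusted p was below 0.05. The gene left out was Abcd2, a peroxisomal importer of very long chain acyl-CoA, which had 0 to 4 reads per library and at most 0.047 FPKM. Its 0 reads in 5 libraries allow up to between 0.0222 and 0.0496 FPKM.

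Reads on genes numbered 10949420 to 24470409 per mouse. Myo5b was below every control mouse in every knockout mouse, with 16.5 to 32 FPKM in control mice and 10.5 to 13.6 FPKM in MYO5B-knockout mice (log2 fold change, or log2FC, of -0.96, limma adjusted p = 0.115, and -1.15 with adjusted p = 0.0185 without the 2 sparse libraries described next). The LPA-treated knockouts had 10.3 to 11.7 FPKM of Myo5b, also below every control. Sparse libraries came from control mouse 2 and MYO5B-knockout mouse 3, which stood apart with 12242 and 12601 detected genes and 17.4% and 18% mitochondrial reads. The other 8 libraries had 17309 to 18267 detected genes and 1.98% to 3.5% mitochondrial reads. Results are given with and without these 2 sparse libraries, and no batch is named in the labels. Xist was detected in MYO5B-knockout mouse 3 and in LPA-treated mouse 1, with no reads on 4 Y-linked genes, against their label. Values without each of these mice are covered where fits leave out single mice.

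Between knockouts and controls, the peroxisomal genes called lower were a few single enzymes, and no peroxin was called. With all libraries, 2 of the 36 members tested were called, both lower in knockouts: Acaa1a, a thiolase of beta-oxidation, and Ephx2, the soluble epoxide hydrolase. Over all genes, 0.884% were called lower, 1.13% higher and 2.01% in either direction. Without the sparse libraries, 8 members were called, where 4.95% of all genes were. Of these, 7 fell (Acaa1a, Acaa1b, Ephx2, Cat, Scp2, Phyh and Slc27a2), where 2.38% of all genes were called lower. The 1 that rose was Agps, which makes ether lipids, where 2.56% of all genes were called higher. The median log2FC of the 36 members was -0.10 with all libraries and -0.25 without the sparse libraries, beside 0.29 and 0.21 for all genes tested. Over all alternatives that median lay between -0.48 and 0.16. The 24 tested members that are no peroxins had a median of -0.76, and the 12 peroxins had a median of 0.13.

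**Figure D1:**
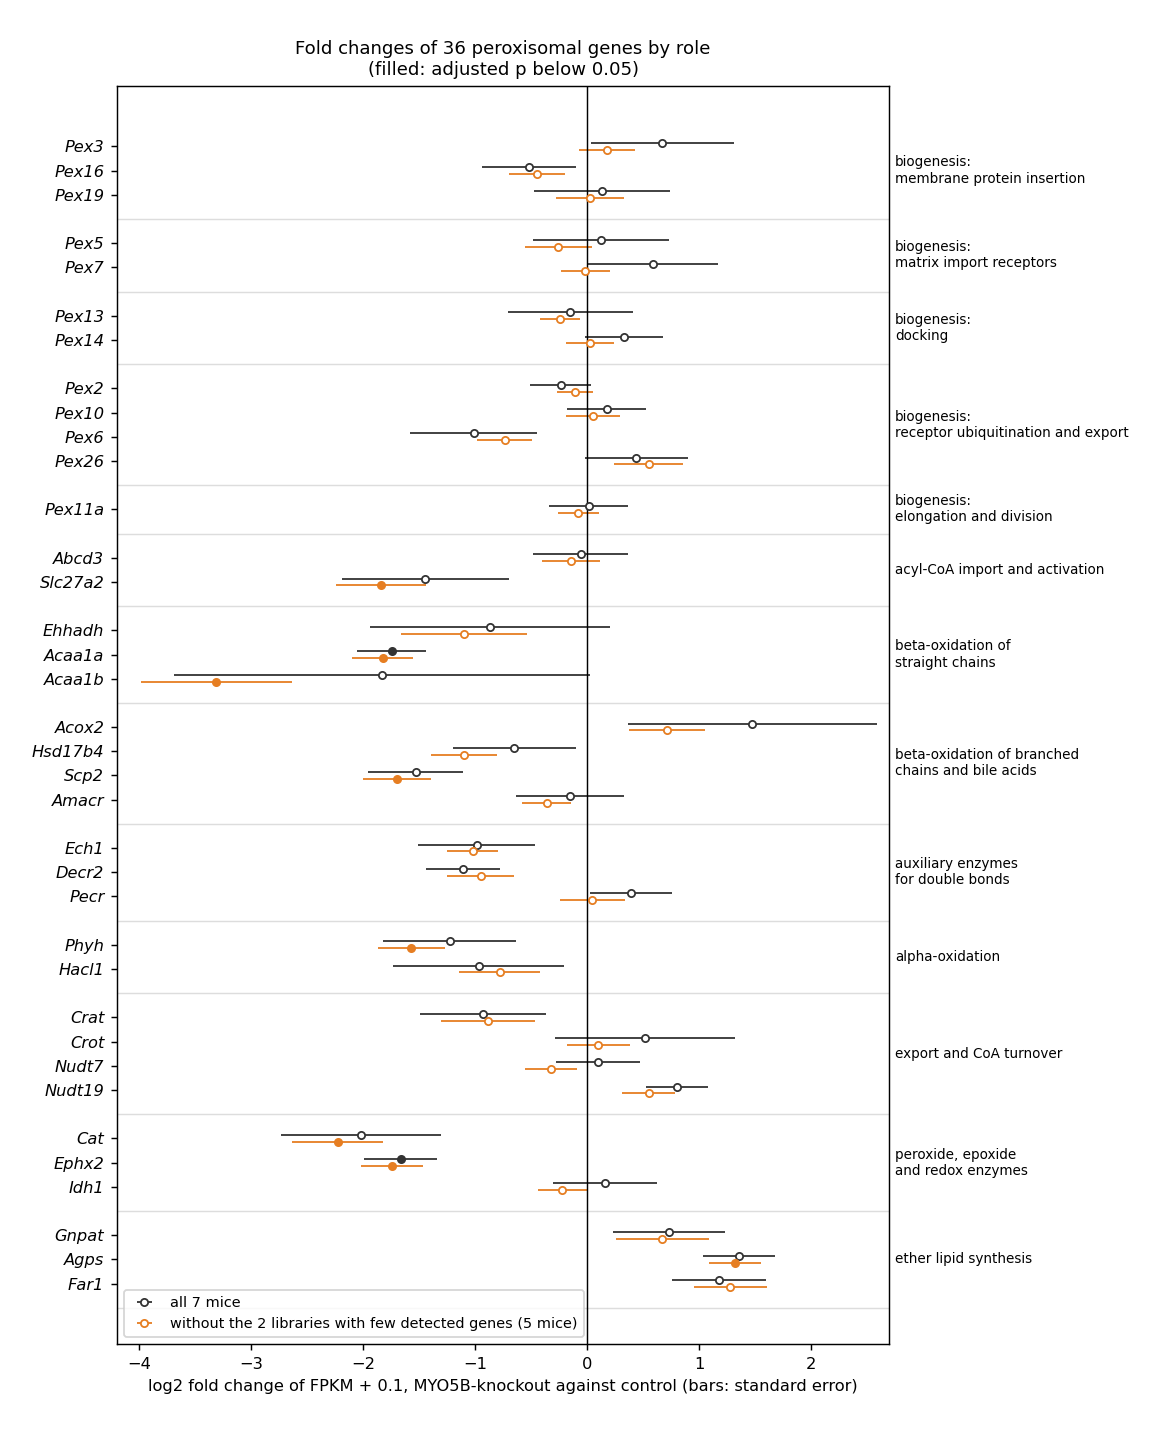
Log2FC of FPKM + 0.1 (x axis) between knockouts and controls for the 36 members tested, in order of role (y axis), with all 7 mice (black) and without the 2 sparse libraries (orange); bars are standard errors and filled points have an adjusted p below 0.05. Acaa1a and Ephx2 are filled in black, and 8 genes are filled in orange, of which Agps alone lies to the right of 0.

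Beta-oxidation of straight chains was represented by Acaa1a, Acaa1b and Ehhadh. Acaa1a (ENSMUSG00000036138, chromosome 9 from 119339676 to 119350299, plus strand, GRCm38) encodes a 3-ketoacyl-CoA thiolase, the enzyme of the last step of each round. It stood at 111, 163 and 186 FPKM in controls 2, 4 and 5, and at 33.4, 36.3, 53 and 61.2 FPKM in knockouts 3, 5, 6 and 7. LPA-treated knockouts 1, 4 and 5 had 50, 68.7 and 45.9 FPKM. Every tamoxifen-treated mouse, with or without LPA, thus lay below every control mouse. The log2FC between knockouts and controls was -1.75 (standard error 0.31, limma adjusted p = 0.0241), and -1.83 without the sparse libraries (standard error 0.27, limma adjusted p = 0.0191). Acaa1a was not called without control 4 (limma adjusted p = 0.0911), control 5 (0.117), knockout 5 (0.0842) or knockout 6 (0.0543). The call held in the other 6 of the 10 fits that each left out 1 mouse.

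Acaa1b (ENSMUSG00000010651, chromosome 9 from 119148023 to 119157093, minus strand) encodes a near-identical thiolase from a neighbouring gene. It had 0 reads in control 2 and 22.5 and 23.3 FPKM in controls 4 and 5. It had 0 reads in knockout 3 and 3.54, 2.46 and 1.23 FPKM in mice 5, 6 and 7. The LPA-treated knockouts had 5.61, 7.22 and 1.51 FPKM. Both libraries at 0 were the sparse ones, where 0 reads allow up to 0.161 and 0.162 FPKM. With them the groups overlapped and the log2FC was -1.83 (standard error 1.86, limma adjusted p = 0.647). Without them the groups did not overlap and it was -3.31 (standard error 0.68, limma adjusted p = 0.0403), with a mean in knockouts of 10.5% of the control mean. Of 1663 windows of 100 bases along the longest transcript of Acaa1a, 360 (21.6%) also occur in transcripts of Acaa1b, so reads from these stretches could have been divided between the 2 genes or left out. Reads on Myd88, which overlaps Acaa1a on the opposite strand, came to 10.5% of the reads on Acaa1a, and whether the counting used strand is not given in the sources used here.

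Ehhadh encodes the bifunctional enzyme of the middle steps and ranged from 5.19 to 60.8 FPKM in controls and from 2.06 to 32.3 FPKM in knockouts. Its log2FC of -0.87 was within the spread (standard error 1.07, limma adjusted p = 0.719), and its lowest value in each group came from a sparse library. Without these libraries it was -1.10 (limma adjusted p = 0.263), and 0.030 when knockout 3 alone was left out.

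Among the 4 genes for branched chains and bile acid side chains, Scp2 was the most abundant. Scp2 (ENSMUSG00000028603, chromosome 4 from 108043839 to 108144998, minus strand) encodes both the thiolase of branched chains and a sterol carrier protein. Controls 2, 4 and 5 had 171, 386 and 443 FPKM, and knockouts 3, 5, 6 and 7 had 62.4, 111, 139 and 135 FPKM. The LPA-treated knockouts had 103, 206 and 116 FPKM. All 4 knockouts lay below all controls, whereas LPA-treated knockout 4 lay above control 2. With all libraries the log2FC was -1.53 (standard error 0.43, limma adjusted p = 0.0942). It was -1.70 and passed the test without the sparse libraries (standard error 0.30, limma adjusted p = 0.0304).

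Acox2 (ENSMUSG00000021751, chromosome 14 from 8225511 to 8259353, minus strand) encodes the oxidase that starts branched-chain and bile acid side chain oxidation, and it did not follow Scp2. It stood at 0.156, 4.33 and 7.64 FPKM in controls 2, 4 and 5 and at 1.13, 10.5, 8.1 and 10.1 FPKM in knockouts 3, 5, 6 and 7. The LPA-treated knockouts had 9.19, 9.64 and 5.5 FPKM. In both groups the sparse library was the lowest, and the groups overlapped with it and not without it. The log2FC was 1.48 (standard error 1.11, limma adjusted p = 0.530) and 0.71 without the sparse libraries (limma adjusted p = 0.232), and it was -0.029 when control 2 alone was left out. Hsd17b4, the bifunctional enzyme of this branch, had a log2FC of -0.65 (limma adjusted p = 0.580) and -1.10 without the sparse libraries (limma adjusted p = 0.0749). Amacr, the racemase that readies branched substrates, ranged from 3.27 to 10 FPKM in controls and from 3.16 to 8.9 FPKM in knockouts.

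Of the genes for fatty acid entry, Slc27a2 (ENSMUSG00000027359, chromosome 2 from 126552407 to 126588243, plus strand) encodes an acyl-CoA synthetase of very long chains. It stood at 6.58, 35.7 and 51.7 FPKM in controls 2, 4 and 5. The knockouts 3, 5, 6 and 7 had 2.91, 15.2, 13.7 and 8.11 FPKM, and the LPA-treated knockouts had 10.1, 18.8 and 8.85 FPKM. Control 2 lay below 3 of the 4 knockouts, while controls 4 and 5 lay above all tamoxifen-treated mice. The log2FC was -1.44 with all libraries (standard error 0.75, limma adjusted p = 0.349) and -1.84 without the sparse libraries (standard error 0.40, limma adjusted p = 0.0452). Abcd3, the most abundant peroxisomal acyl-CoA transporter here, ranged from 37.3 to 88.9 FPKM in controls and from 32.4 to 93.7 FPKM in knockouts, and no test called it.

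Alpha-oxidation removes a single carbon from phytanic acid and other methyl-branched acids of the diet. Its first enzyme is encoded by Phyh (ENSMUSG00000026664, chromosome 2 from 4919019 to 4938730, plus strand), at 65, 279 and 316 FPKM in controls 2, 4 and 5. It stood at 34, 102, 104 and 94.1 FPKM in knockouts 3, 5, 6 and 7 and at 98.8, 167 and 79.1 FPKM in the LPA-treated knockouts. Apart from control 2, every control mouse lay above every tamoxifen-treated mouse. The log2FC was -1.23 (standard error 0.60, limma adjusted p = 0.316) with all libraries, and -1.57 (standard error 0.30, limma adjusted p = 0.0354) without the sparse libraries. Hacl1, the lyase of the pathway, was low, with 0.189 to 3.71 FPKM over controls and knockouts and a log2FC of -0.97 (limma adjusted p = 0.552). Btd lies opposite to Hacl1 and had 293% as many reads as Hacl1, so the value of Hacl1 is uncertain.

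The auxiliary enzymes that deal with double bonds were split. Decr2, a dienoyl-CoA reductase, had 27, 28.6 and 30.5 FPKM in controls and 8.73, 14, 16.6 and 15.2 FPKM in knockouts. The groups did not overlap, and the log2FC of -1.11 was not called by limma (standard error 0.33, adjusted p = 0.117), while edgeR on the recovered reads gave an adjusted p of 0.0348. Ech1, a dienoyl-CoA isomerase, had a log2FC of -0.98 (limma adjusted p = 0.362) and -1.02 without the sparse libraries (limma adjusted p = 0.0513). Pecr, an enoyl-CoA reductase, ranged from 7.79 to 10.1 FPKM in controls and from 8.17 to 20 FPKM in knockouts. Over the 14 tested genes of acyl import, alpha-oxidation and beta-oxidation, auxiliary enzymes included, 12 had a fold change below 0 and the median was -0.98.

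Peroxide and epoxide handling held 2 of the deepest differences. Cat (ENSMUSG00000027187, chromosome 2 from 103453849 to 103485160, minus strand) encodes catalase, which breaks hydrogen peroxide down to water and oxygen. It stood at 18.9, 90 and 94.7 FPKM in controls 2, 4 and 5 and at 4.16, 20.6, 26.3 and 13.9 FPKM in knockouts 3, 5, 6 and 7. The LPA-treated knockouts had 28.6, 16.8 and 11.2 FPKM. Controls 4 and 5 lay above all tamoxifen-treated mice, and control 2 lay among them. The log2FC of -2.02 was not called with all libraries (standard error 0.72, limma adjusted p = 0.178). The mean in knockouts was 21.9% of the control mean without the sparse libraries, and the log2FC of -2.23 was called (standard error 0.41, limma adjusted p = 0.0322).

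Ephx2 (ENSMUSG00000022040, chromosome 14 from 66084377 to 66124500, minus strand) encodes an enzyme of peroxisome and cytosol that hydrolyses fatty acid epoxides. It stood at 241, 374 and 429 FPKM in controls 2, 4 and 5, and at 75.8, 92.7, 139.9 and 132 FPKM in knockouts 3, 5, 6 and 7. The LPA-treated knockouts had 122, 161 and 95.1 FPKM, so that no tamoxifen-treated mouse reached a control mouse. Its log2FC was -1.66 (standard error 0.33, limma adjusted p = 0.0350), and -1.74 without the sparse libraries (limma adjusted p = 0.0224). With single mice left out, the call held in 2 of 10 fits, without control 2 (limma adjusted p = 0.0327) and without knockout 3 (0.0478). In the other 8 fits, each of which lacked 1 of the other mice, limma adjusted p lay between 0.0526 and 0.152. Idh1, which supplies NADPH in peroxisome and cytosol, ranged from 55.5 to 208 FPKM in controls and from 89.3 to 212 FPKM in knockouts.

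**Figure D2:**
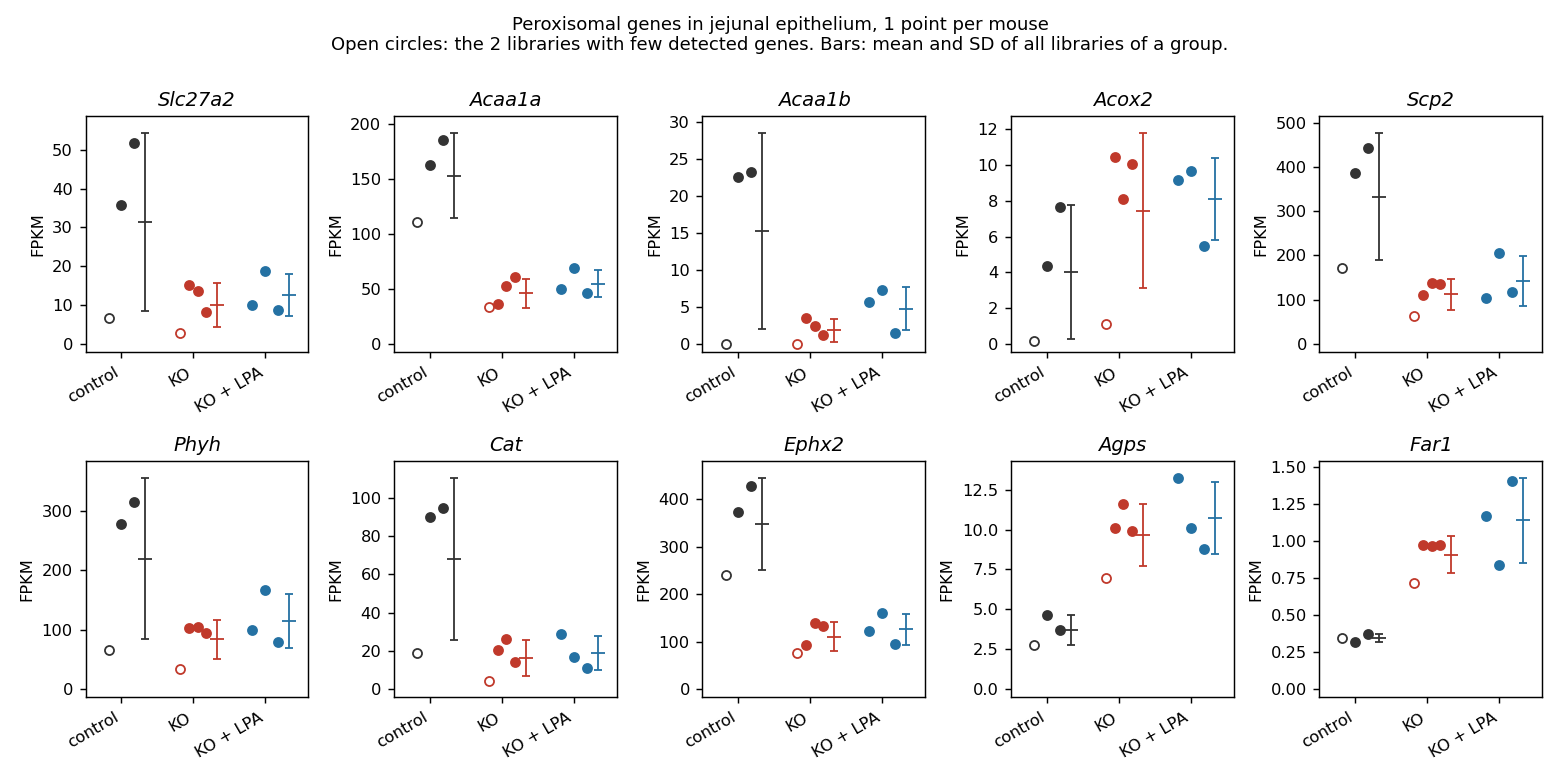
FPKM (y axis) of 10 peroxisomal genes in each control, MYO5B-knockout (KO) and LPA-treated MYO5B-knockout (KO + LPA) mouse; open circles are the 2 sparse libraries, and bars show the mean and SD of all libraries of a group. Acaa1a and Ephx2 lie lower in every tamoxifen-treated mouse than in every control mouse, Agps and Far1 lie higher, and for Cat, Phyh and Slc27a2 the open circle of the control group falls among the tamoxifen-treated mice.

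The 3 ether lipid genes all had fold changes above 0. Agps (ENSMUSG00000042410, chromosome 2 from 75832177 to 75931350, plus strand) encodes the synthase that forms the ether bond inside the peroxisome. It stood at 2.78, 4.63 and 3.71 FPKM in controls 2, 4 and 5, at 6.94, 10.1, 11.6 and 9.9 FPKM in knockouts 3, 5, 6 and 7, and at 13.2, 10.1 and 8.8 FPKM in the LPA-treated knockouts. Every tamoxifen-treated mouse lay above every control mouse. The log2FC was 1.36 (standard error 0.32, limma adjusted p = 0.0595), and 1.32 without the sparse libraries (standard error 0.23, limma adjusted p = 0.0290).

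Far1 (ENSMUSG00000030759, chromosome 7 from 113513834 to 113571511, plus strand) encodes the reductase that makes the fatty alcohol for this bond. It was scarce, with 19 to 142 reads per library, at 0.347, 0.314 and 0.368 FPKM in controls 2, 4 and 5. It stood at 0.718, 0.97, 0.967 and 0.974 FPKM in knockouts 3, 5, 6 and 7 and at 1.17, 0.839 and 1.41 FPKM in the LPA-treated knockouts. Again no tamoxifen-treated mouse overlapped with a control mouse. The log2FC of 1.18 (standard error 0.42, limma adjusted p = 0.181) was not called, nor was that of 1.28 without the sparse libraries (limma adjusted p = 0.0678). Gnpat, the acyltransferase that precedes Agps, had a log2FC of 0.74 (limma adjusted p = 0.485), and its groups overlapped. Without the sparse libraries it had 6.68 to 8.58 FPKM in controls and 9.4 to 14 FPKM in knockouts. The groups then did not overlap, and its log2FC of 0.67 was not called (limma adjusted p = 0.345).

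Export of shortened acyl groups and turnover of coenzyme A were mixed. Crat, which hands acetyl and short acyl groups to carnitine, ranged from 16.6 to 39.2 FPKM in controls and from 5.92 to 22.5 FPKM in knockouts (log2FC -0.93, limma adjusted p = 0.430). Reads on Dolpp1, on the opposite strand, came to 75.4% of those on Crat. Crot, its counterpart for medium chains, ranged from 4.47 to 38.4 FPKM in controls and from 7.68 to 47.3 FPKM in knockouts. Of the CoA hydrolases, Nudt7 ranged from 3.37 to 8.93 FPKM and from 5.93 to 7.96 FPKM in these groups. Nudt19 had 15.1, 21.4 and 21.5 FPKM in controls and 40.1, 35.9, 29 and 29.9 FPKM in knockouts, without overlap, and a log2FC of 0.81 (standard error 0.28, limma adjusted p = 0.162).

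None of the 12 peroxins was called between knockouts and controls, with all libraries or without the sparse libraries. Their log2FC values ran from -1.01 for Pex6 to 0.67 for Pex3 with all libraries, and from -0.73 to 0.55 without the sparse libraries. Their median was 0.13 with all libraries and -0.046 without the sparse libraries, so its sign depended on them. The value of Pex3 was -0.16 when control 2 alone was left out. Pex3, Pex16 and Pex19 place membrane proteins into peroxisomes. Pex3 ranged from 0.734 to 4.67 FPKM in controls and from 1.98 to 6.1 FPKM in knockouts, and Adat2 on its opposite strand had 35.8% as many reads. Pex16, at 63 to 159.7 FPKM in controls and 48 to 126 FPKM in knockouts, was highest in the 2 sparse libraries. Pex19, the cytosolic chaperone of membrane proteins, ranged from 11 to 39.6 FPKM and from 9.83 to 42.3 FPKM.

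Pex5 and Pex7 carry matrix enzymes to the organelle. Pex5 serves the common C-terminal signal, and Pex7 the N-terminal signal of Acaa1a, Acaa1b, Phyh and Agps. Pex5 ranged from 4.2 to 21.8 FPKM in controls and from 6.03 to 18.8 FPKM in knockouts, and Pex7 from 3.02 to 18.3 FPKM and from 9.09 to 22.8 FPKM. At the docking site, Pex13 ranged from 2.73 to 9.17 FPKM and from 2 to 8.1 FPKM, and Pus10 on its opposite strand had 70.6% as many reads. The ranges of Pex14 were 1.99 to 4.28 FPKM and 3.66 to 4.6 FPKM. In all 4 genes of receptor and docking the groups overlapped with all libraries. Once the sparse libraries were left out, Pex5 and Pex13 were lower in knockouts without overlap, at 15.3 to 18.8 against 19.4 to 21.8 FPKM for Pex5 and 6.82 to 8.1 against 8.44 to 9.17 FPKM for Pex13, and neither was called.

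Pex2 and Pex10 belong to the ubiquitin ligase that recycles Pex5, and Pex6 and its anchor Pex26 to the export motor. Pex2 ranged from 25.9 to 30.6 FPKM in controls and from 15.9 to 31.1 FPKM in knockouts, and Pex10 lay between 1.72 and 3.08 FPKM over both groups. Pex6 had 87.4 and 38.9 FPKM in the 2 sparse libraries, 20.4 and 22.6 FPKM in the other controls and 9.7, 12.6 and 17.4 FPKM in the other knockouts. Its log2FC was -1.01 (standard error 0.57, limma adjusted p = 0.388) and -0.73 without the sparse libraries (limma adjusted p = 0.119). Pex26 ranged from 1.81 to 3.17 FPKM in controls and from 1.67 to 5.12 FPKM in knockouts. Pex11a, which elongates the membrane before division and is a known PPAR-alpha target, ranged from 14.2 to 28.5 FPKM and from 13.8 to 32.3 FPKM.

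**Figure D3:**
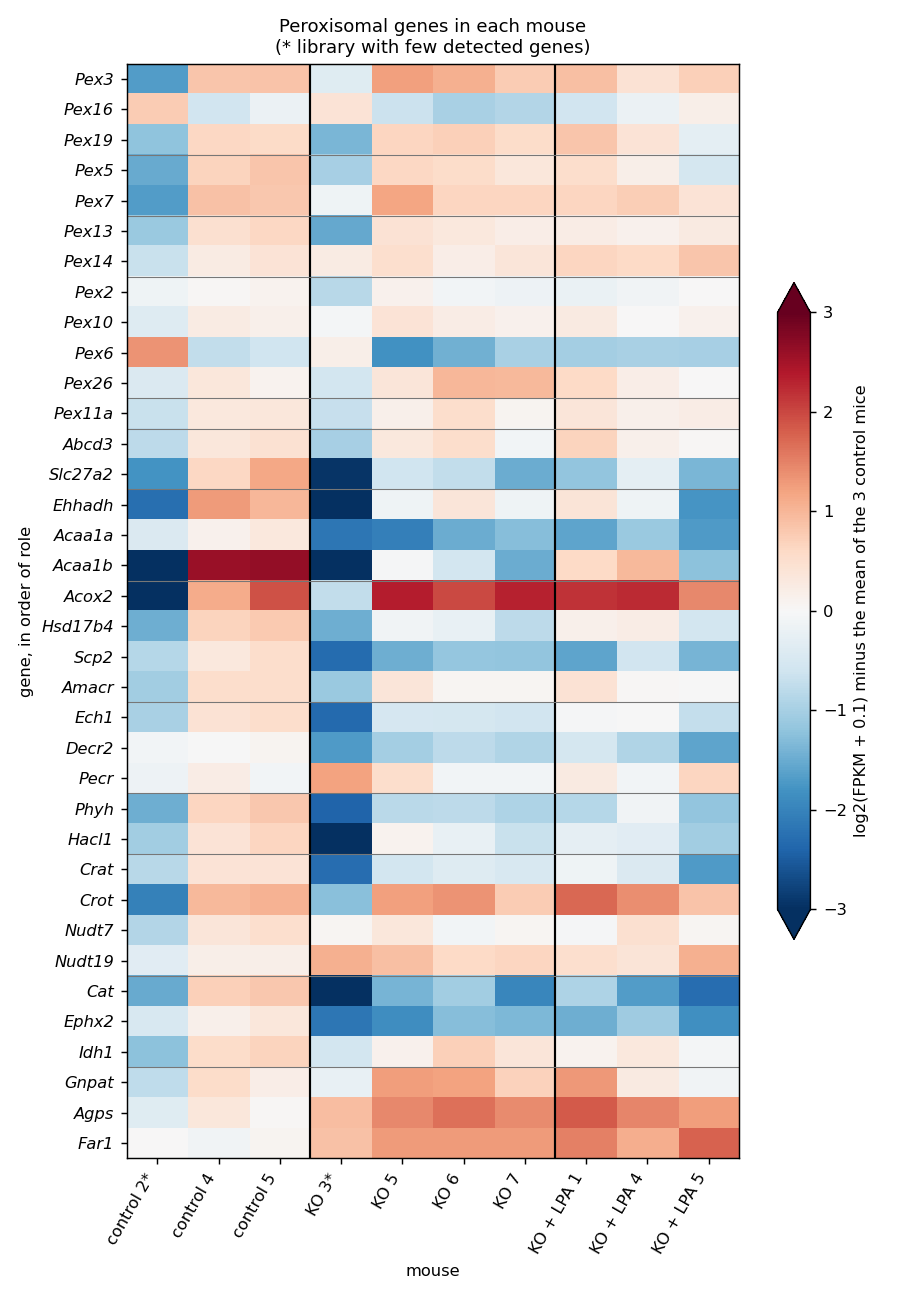
Log2 of FPKM + 0.1 minus the mean of the 3 controls (colour, red above and blue below) for the 36 members tested (rows, in order of role) in each mouse (columns); asterisks mark the 2 sparse libraries. Control 2 is blue over most rows except Pex6 and Pex16, whereas Acaa1a, Scp2, Decr2 and Ephx2 are blue and Agps and Far1 red in knockouts with many and with few detected genes.

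The 2 sparse libraries hold 1 control and 1 knockout mouse and share no library with the comparison of the others. Of the 8 members called without them, 7 differed in the same direction between knockout 3 and control 2, and Acaa1b had 0 reads in both. Mouse 3 had 30.2% of the Acaa1a level of control 2, 31.4% of Ephx2, 22% of Cat, 36.4% of Scp2, 52.3% of Phyh, 44.2% of Slc27a2 and 249% of Agps. Over all 778 genes called without the sparse libraries, 87.5% differed in the same direction in this pair, so the 7 of 8 members did so no more often than called genes in general. No test is possible on 1 mouse of each kind. The pair also differed in sex-linked genes, with Xist at 8.41 FPKM in knockout 3 and 0 FPKM in control 2. The Y-linked genes were at 0 FPKM in knockout 3 and were detected in control 2.

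Without overlap between the groups, 4 members were lower (Acaa1a, Scp2, Decr2 and Ephx2), where 6.2% of all genes were. Another 3 were higher without overlap (Nudt19, Agps and Far1), where 11% of all genes were. Without the sparse libraries, 19 members were lower and 6 higher without overlap, where 20.5% and 35.5% of all genes were. Lower were Pex5, Pex6, Pex13, Pex16, Acaa1a, Acaa1b, Ehhadh, Scp2, Hsd17b4, Amacr, Slc27a2, Phyh, Hacl1, Decr2, Ech1, Cat, Ephx2, Crat and Nudt7. Higher were Pex26, Acox2, Nudt19, Gnpat, Agps and Far1. On the recovered reads, edgeR called 6 members with all libraries, where 2.82% of all genes were called. They were Acaa1a, Ephx2, Scp2, Cat and Decr2, lower, where 1.68% of all genes were called lower, and Agps, higher, where 1.14% were. Median-ratio scaling between libraries moved the median of all genes by -0.25, and the same 6 members were then called. It also changed the split over all genes from 177 higher and 139 lower to 222 higher and 376 lower.

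Summed levels of markers of cell types and states differed between controls and knockouts for some lists and overlapped for others. The 7 epithelial markers, of which Krt8 was the highest in every mouse, summed to 6020 to 6704 FPKM in controls. In knockouts they summed to 7103 to 10238 FPKM. The summed level of 18 enterocyte markers was 24839 to 35527 FPKM in controls and 9967 to 24316 FPKM in knockouts. LPA-treated knockouts had 12985 to 28531 FPKM. Apoa1, the highest of these markers in every mouse, had 10408 to 13544 FPKM in controls and 4660 to 8724 FPKM in knockouts. Without Apoa1, the sums of controls and knockouts overlapped. Among the enterocyte markers, 13 of the 18 had fold changes below 0, with a median of -1.04. The 20 markers of proliferating cells summed to 122 to 206 FPKM in controls and 333 to 614 FPKM in knockouts, and all 20 had fold changes above 0. Leukocyte markers summed to 303 to 426 FPKM in controls and 14.9 to 125 FPKM in knockouts. Much of that was Gzma, at 226 to 331 FPKM and 7.2 to 91.4 FPKM. The 6 Paneth cell markers, of which Defa24 was the highest in every mouse, summed to 3851 to 10491 FPKM in controls and 3501 to 6088 FPKM in knockouts. Without the sparse libraries these ranges were 9468 to 10491 and 3501 to 5911 FPKM, and LPA-treated knockouts had 1057 to 4024 FPKM. Goblet cell markers summed to 10262 to 12084 FPKM in controls, 7254 to 11874 FPKM in knockouts and 11867 to 21681 FPKM in LPA-treated knockouts. Markers of stromal and endothelial cells summed to at most 11 FPKM in every mouse. The 5 markers of hepatocytes, which are rich in peroxisomes and should be absent here, summed to 58.1 FPKM in knockout 7, to 13.5 and 16.2 FPKM in LPA-treated knockouts 4 and 5, and to at most 4.29 FPKM in the other 7 mice. The part of these shifts in the fall of the oxidation genes was not tested. In bulk RNA, fewer cells that express a gene and less RNA per cell cannot be told apart.

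Summed over members, the 15 genes of acyl import, alpha-oxidation and beta-oxidation reached 526, 1371 and 1524 FPKM in controls 2, 4 and 5 and 251, 575, 628 and 552 FPKM in knockouts 3, 5, 6 and 7. The LPA-treated knockouts reached 658, 813 and 488 FPKM. Controls 4 and 5 lay above all tamoxifen-treated mice, and control 2 did not. The 12 peroxins summed to 241 to 314 FPKM in controls, 209 to 233 FPKM in knockouts and 236 to 244 FPKM in LPA-treated knockouts. Pex6 and Pex16 made much of that sum, and without them controls had 67.3 to 160.2 FPKM and knockouts 66.4 to 163 FPKM. The 3 ether lipid genes summed to 6.5 to 13.5 FPKM in controls and 12.6 to 26.1 FPKM in knockouts.

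**Figure D4:**
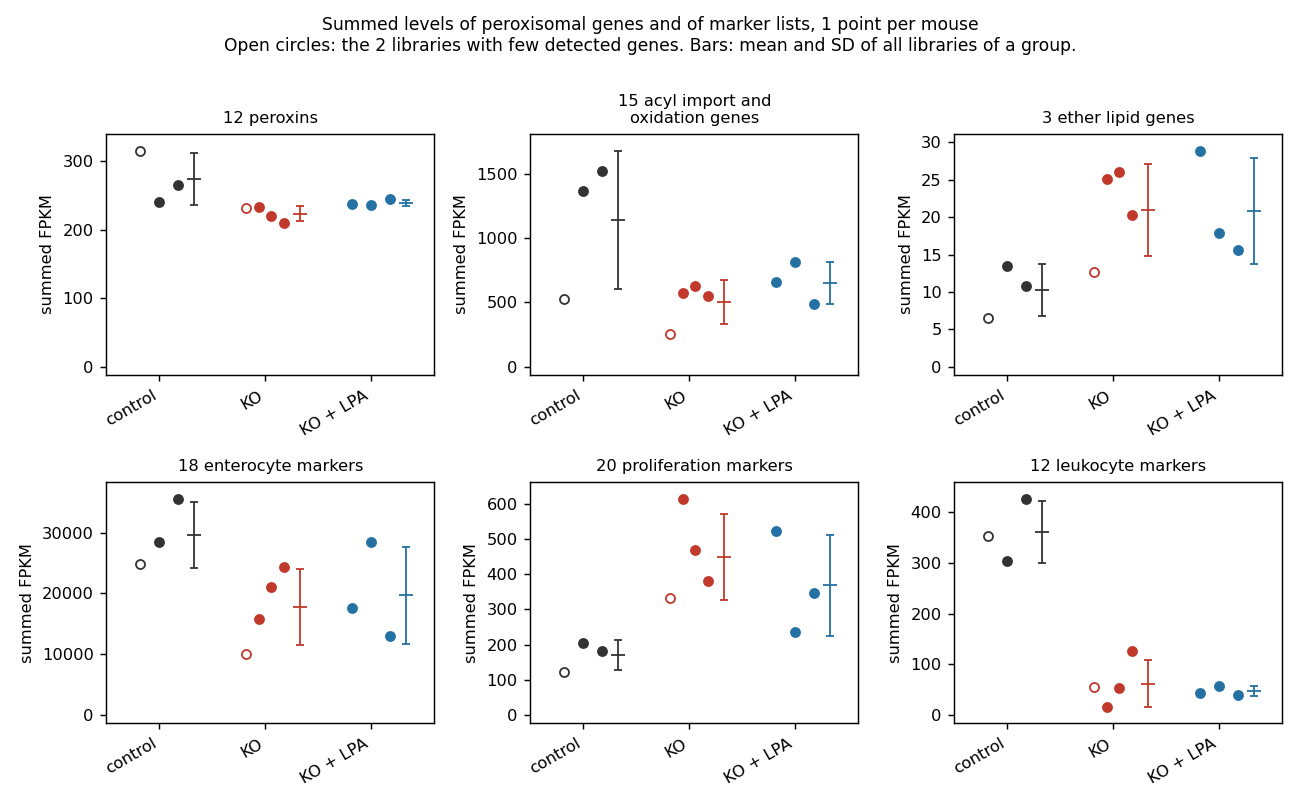
Summed FPKM (y axis) of 3 groups of peroxisomal genes (top) and of 3 marker lists (bottom) in each control, MYO5B-knockout (KO) and LPA-treated MYO5B-knockout (KO + LPA) mouse; open circles are the 2 sparse libraries, and bars show the mean and SD. The peroxin sums lie between 209 and 314 FPKM in all mice, the proliferation sums of knockouts lie above those of controls, and the enterocyte and leukocyte sums lie below.

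The promoters of the members were searched for AGGTCA, the 6-base site bound by PPAR-alpha and many other nuclear receptors, and for its direct repeat AGGTCANAGGTCA, in windows from 250 bases before to 50 bases after each RefSeq start (GRCm38.p6), on both strands. Promoters of 30 of the 37 members were matched, and Ephx2 was not among these members. The repeat was in 0 of the 30 and in 0.0396% of all 32851 promoters, and with 1 mismatch allowed it was in 0 of the 30 and in 0.554% of all promoters. It is so rare in such windows that 0 of 30 cannot show whether the members differ from other genes. The single site, which is contained in the repeat, was in 4 of the 30 members (13.3%) and in 16.3% of all promoters. The first share counts genes, which had 37 promoters, and the second counts promoters, and they lie near each other. The 4 were Cat, Phyh, Scp2 and Slc27a2, all among the 7 genes called lower without the sparse libraries. Their overlap with these 7 was noticed after the values were seen and was not tested. Their windows are printed 5′ to 3′ on the strand of the gene, with the site in capitals, which reads TGACCT where it lies on the other strand.
Cat, chr2:103485340-103485369, minus strand: tgtgactctcagAGGTCAgagaacaccagc
Phyh, chr2:4919020-4919045, plus strand: gtaagttaagtgTGACCTgggcgcag
Scp2, chr4:108118639-108118668, minus strand: gtctaacacagtAGGTCAaaagaacccata
Slc27a2, chr2:126552792-126552821, plus strand: gcaccacgccttTGACCTtttcaacgtggg
The site began 204, 109 and 220 bases before a start of Cat, Scp2 and Slc27a2, and 36 bases after a start of Phyh. The window searched for Scp2, from 108118498 to 108118797, lay inside the gene, which runs from 108043839 to 108144998 on the minus strand. The 5′ end of Scp2 at 108144998 was therefore not searched. The letters alone do not show that any receptor binds there.

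The comparison of LPA-treated with vehicle-treated knockouts asked whether LPA changed these genes once MYO5B was lost. None of the 36 members was called by limma, where 0% of all genes were called, and none had an unadjusted p below 0.05, which 459 of all genes (2.92%) had. On the recovered reads edgeR called no gene either, with 446 genes and 0 members at an unadjusted p below 0.05, and DESeq2 called 7 genes, none of them a member. The median log2FC of the members was 0.26 with all libraries and -0.0073 without the sparse libraries, beside 0.11 and -0.11 for all genes tested. Acaa1b had the log2FC farthest from 0, at 1.95, with a 95% interval from -2.17 to 6.06. For Acaa1a it was 0.28, from -0.41 to 0.96. For Ephx2 it was 0.21, from -0.52 to 0.93, and for Agps 0.16, from -0.55 to 0.86. Catalase had a log2FC of 0.39, from -1.20 to 1.98, which was -0.16 without the sparse libraries, from -1.01 to 0.69. Changes in either direction within these intervals cannot be told from none with 4 and 3 mice.

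Of the peroxins, Pex14 had 5.07, 4.92 and 5.78 FPKM in the LPA-treated knockouts, above all 4 knockouts at 3.66 to 4.6 FPKM, where 3.56% of all genes lay higher without overlap, and its log2FC was 0.36 (limma adjusted p = 1). Without the sparse libraries, Pex16 was the 1 member with an unadjusted p below 0.05 in limma, with a log2FC of 0.64, from 0.12 to 1.17 (limma adjusted p = 0.468), where 1613 of all genes (10.3%) had such a p.

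LPA-treated knockouts were also set against controls, which are the same 3 mice as in the first comparison. With all libraries 2 members were called, where 2.32% of all genes were. Acaa1a was lower (log2FC -1.47, limma adjusted p = 0.0496), where 0.776% of all genes were called lower, and Agps was higher (1.52, limma adjusted p = 0.0496), where 1.54% were called higher. With single mice left out, Acaa1a was called in 2 of 10 fits, without control 2 (limma adjusted p = 0.0404) and without knockout 3 (0.0342), and Agps in 1 of 10, without knockout 3 (0.0265). Without any of the other mice, limma adjusted p was between 0.0658 and 0.200 for Acaa1a and between 0.0765 and 0.158 for Agps. Ephx2 had a log2FC of -1.46 (limma adjusted p = 0.0616). Without control 2 and knockout 3, 8 members were called, where 8.56% of all genes were. Of these, Slc27a2, Acaa1a, Scp2, Phyh, Cat and Ephx2 were lower, where 4.25% of all genes were called lower, and Agps and Far1 were higher, where 4.31% were. The fold change of Acaa1b was 0.12 with all libraries and -2.50 without the sparse libraries, and neither was called (limma adjusted p = 0.986 and 0.0632). None of the 12 peroxins was called in this comparison, with or without the sparse libraries.

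Beyond the 37 genes, 40 other peroxisomal genes were listed, among them peroxidases and amino acid oxidases, and 35 were tested. Between knockouts and controls 1 of them was called, lower (0.884% of all genes were), and their median log2FC was -0.26. In the fit that left out the sparse libraries 3 were called lower and 1 higher, where 2.38% and 2.56% of all genes were. Of 30 further genes of PPAR-alpha and its known targets outside the peroxisome, 28 were tested, 3 were called higher, where 1.13% of all genes were, and 0 lower, where 0.884% were. Leaving out the sparse libraries gave 3 calls in each direction, beside the same shares of all genes as for the previous list. No difference between these lists and the oxidation genes was tested.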

How the data were processed

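RNA-seq was performed on jejunal epithelial cells of 10 mice (3 control, 4 MYO5B-knockout and 3 LPA-treated MYO5B-knockout). The submitters' processing notes name STAR 2.5, TopHat, HTSeq 0.6.1 and the GRCm38 (mm10) build, and the authors deposited FPKM per gene. No scaling between libraries is given in the sources used here. Multiplied by gene length, 100% of the deposited values above 0 were whole reads within 0.05, and 63 of 63 deposited read counts equalled the recovered ones.

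The log2 of FPKM + 0.1 of genes averaging 0.1 FPKM or more was fitted with limma 3.58.1 (trended variance, 1 model of 3 groups, two-sided, Benjamini-Hochberg over 15729 genes). Columns of the authors' own comparisons were not used. edgeR 4.0.16 (quasi-likelihood) and DESeq2 1.42.0 on recovered reads, other pseudocounts, filters and scalings, leaving out each mouse, a replicate block and, added after seeing the data, 2 fits without the 2 libraries with few detected genes were alternatives. Only the limma fit was tested on simulated data. These had the same spread for all genes and did not copy the 2 libraries with few detected genes.

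Members, lists and alternatives were chosen with earlier results of these data known. Values in every mouse are given for members with an adjusted p below 0.05 in any comparison and for the 10 with the largest fold change between MYO5B-knockout and control mice. Other members are given by role, and single fold changes of these were printed when above 0.6 in size. Gene coordinates are those of the deposited table, and promoter sequences are from RefSeq. The labels do not say that mice of a group came from separate litters or cages. The smallest step, 1 read on a gene of 1 kb, was 0.0409 to 0.0913 FPKM, and limits from 0 reads (3 reads) cover counting error only.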

Additional observations from a re-analysis of the deposited data

Results flagged for a closer look

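In the group of 4 MYO5B-knockout mice, 7 of the 37 genes had 1 mouse far from the other 3, and in 6 of them it was mouse 3, whose library detected few genes. Chance flags about 1 in 20 such groups. Pex16 stood high in mouse 3 at 126 FPKM. Pex19 stood low there at 9.83 FPKM, Ech1 at 25.1 FPKM, Phyh at 34 FPKM, Crat at 5.92 FPKM and Far1 at 0.718 FPKM. Abcd2 stood high in mouse 7 at 0.0321 FPKM, which is a count of a few reads against 0 in the other 3 mice.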

How the results depend on the processing

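Counts of called members depended on the choices made. Between MYO5B-knockout and control mice, 2 members were called, with 1 when no filter on low genes was used, 5 after quantile normalization, 6 after median-ratio scaling, 6 by edgeR, 11 by DESeq2, 8 without the 2 sparse libraries (control mouse 2 and MYO5B-knockout mouse 3) and 0 when the fit held only the 2 groups compared. Without those 2 libraries, edgeR and median-ratio scaling each gave 11. In LPA-treated MYO5B-knockout against control mice, 2 members were called, with 0 at a pseudocount of 0.01, 0 with no filter, 4 after quantile normalization, 5 after median-ratio scaling, 7 by DESeq2, 8 without the 2 libraries, 0 with only the 2 groups, and 10 and 11 without the 2 libraries after median-ratio scaling and by edgeR. With single mice left out, both counts lay between 0 and 3, with 3 without MYO5B-knockout mouse 3. The count was 0 under every alternative for LPA-treated against vehicle-treated mice. The calls over all genes moved as well: between MYO5B-knockout and control mice they went from 316 to 188 with no filter, 804 after quantile normalization, 598 after median-ratio scaling, 443 by edgeR, 1830 by DESeq2, 778 without the 2 libraries, 1151 and 967 there by edgeR and with median-ratio scaling, and 50 with only the 2 groups. In LPA-treated MYO5B-knockout against control mice they went from 365 to 294 at a pseudocount of 0.01, 259 with no filter, 626 after quantile normalization, 490 after median-ratio scaling, 1489 by DESeq2, 1346 without the 2 libraries, 1488 and 1689 there with median-ratio scaling and by edgeR, and 190 with only the 2 groups. The cause of these shifts was not tested.

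Among single fold changes, 25 values over 7 fold changes turned sign. For Acaa1b in LPA-treated MYO5B-knockout against control mice the value became -0.69 at a pseudocount of 1, -0.025 after median-ratio scaling, -0.37 after quantile normalization, -1.81 by edgeR, -1.82 by DESeq2, -2.50 without the 2 libraries, and -2.63 and -2.37 there with median-ratio scaling and edgeR. With single mice left out it lay between -2.50 and 1.44. For Cat in LPA-treated against vehicle-treated mice it became -0.16 without the 2 libraries, and -0.055 and -0.040 there with median-ratio scaling and edgeR, with -0.16 to 0.72 when single mice were left out. Agps lay between -0.0047 and 0.29 in that comparison with single mice left out. Between MYO5B-knockout and control mice, Pex3 became -0.053 and -0.015 without the 2 libraries under median-ratio scaling and edgeR. With single mice left out, Pex3 lay between -0.16 and 1.10, Ehhadh between -1.99 and 0.030 and Acox2 between -0.029 and 2.43. Of the 36 members tested, 17 changed sign under at least 1 of 23 alternatives in this comparison, 9 of them peroxins.

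Mice of different groups share few numbers, and the labels do not tie equal numbers together. A fit with the replicate number as a block called 0 members in MYO5B-knockout against control mice and 0 in LPA-treated MYO5B-knockout against control mice. With this block, Acaa1b in LPA-treated against vehicle-treated mice became -0.62, Cat -0.71 and Agps -0.22, and Acaa1b in LPA-treated MYO5B-knockout against control mice became -2.74. Deviations of mice with equal numbers from their group means correlated at 0.10 and 0.30 in 2 pairs and at -0.36 and -0.21 in the other 2 pairs, so the numbers were not taken as pairs.

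In the smallest library, that of MYO5B-knockout mouse 3, 10949420 reads lay on genes. Few reads limit the scarce members most. Far1 had 39 reads there and 19 in control mouse 2, and Acox2 had 36 and 5. Hacl1 had 6 reads in MYO5B-knockout mouse 3 and 35 in control mouse 2. Abcd2 and Acaa1b had 0 reads in both mice.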
